A study of Mus musculus with 24 samples.

Results

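The data examined here are the expression values of 10 immediate early genes in mouse choroid, which in this study means the choroid, a vascular layer, together with the retinal pigment epithelium (RPE) and the sclera on either side of it. The genes were Fos, Fosb, Fosl1, Jun, Junb, Egr1, Egr2, Atf3, Ier2 and Nr4a1. They were taken by symbol from a table of 56065 genes, each symbol matching 1 Ensembl gene, and the rule itself uses no measured value. All 10 were above 0 in all 24 libraries, with the exception of Fosl1, which was listed at 0 in 1 wild type library without laser.

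Choroids of wild type mice and Ceacam1-/- littermates of the C57BL/6J strain were sequenced. Ceacam1 is an adhesion molecule of epithelial, endothelial and myeloid cells, and the deletion is constitutive, not limited to a cell type. Of the libraries, 4 came from wild type and 4 from Ceacam1-/- adult mice without laser. A further 9 wild type and 7 Ceacam1-/- libraries came from mice given 6 laser spots in each eye (150 mW, 200 µm, 100 ms) under ketamine and xylazine anaesthesia to induce choroidal neovascularization, a growth of new vessels through the damaged membrane under the retina. The labels give neither the interval between laser and tissue collection nor the sex or the handling of the mice before dissection. They also do not say that each library came from a separate animal, so the p-values below measure the spread between libraries. Laser libraries are numbered from 1 to 19 and untreated libraries from 21 to 28. Laser, its anaesthesia and any difference in handling between these sets cannot be told apart.

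Immediate early genes are transcribed within minutes of a stimulus from transcription factors already present in the cell, without new protein synthesis. Fos and Jun proteins pair into the dimeric factor AP-1, while Egr proteins, Atf3 and Nr4a1 bind DNA on their own or in other pairs. The transcripts are short-lived, and they are known to respond to injury, growth factors, light and the dissection of tissue itself.

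The regulatory sequences best known for these genes are the CArG box, bound by serum response factor, and the cAMP response element, TGACGTCA. Both strands of the 500 bases before the start of the annotated canonical transcript (GRCm39, GENCODE) were searched in 9 members, Egr1 not being analysed here. The same window was searched in 21077 protein-coding genes of the table. A CArG box stood before Fos, Fosb and Egr2, which is 3 of 9 members, and in 2.78% of all windows. The exact letters of the cAMP response element stood before Ier2 alone, and in 1.98% of all windows. The AP-1 motif TGANTCA was found before Fos alone (12.3% of all windows) and the EGR motif GCGNGGGCG before Fosb and Jun (5.44% of all windows). A match is a stretch of letters and not a tested binding site. Only exact matches were counted, so variants of the cAMP response element were missed, such as tgacgtag before Fos and tgacatca before Jun. The stretches around the CArG boxes are shown so that 1 gene called after laser below, Egr2, can be compared with 2 that were not, Fos and Fosb. The stretch before Ier2 holds the response element. That before the canonical start of Atf3, another gene called after laser, holds no exact match to the 4 motifs. Atf3 reaches to base 190950241 on the minus strand, so its window lies inside the gene. The windows of Egr2 and Nr4a1 also lie inside their genes, and regions before other starts were not searched. Capitals mark the motifs, and all are written 5′ to 3′ on the strand of the gene.
Fos, chr12:85520330-85520389, plus strand: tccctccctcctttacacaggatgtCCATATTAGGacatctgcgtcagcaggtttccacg
Fosb, chr7:19044208-19044267, minus strand: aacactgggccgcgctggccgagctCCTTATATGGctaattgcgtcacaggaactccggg
Egr2, chr10:67373299-67373358, plus strand: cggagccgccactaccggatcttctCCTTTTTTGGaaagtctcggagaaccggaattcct
Egr2, chr10:67373602-67373661, plus strand: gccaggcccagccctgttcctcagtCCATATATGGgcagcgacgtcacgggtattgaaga
Ier2, chr8:85389484-85389683, minus strand: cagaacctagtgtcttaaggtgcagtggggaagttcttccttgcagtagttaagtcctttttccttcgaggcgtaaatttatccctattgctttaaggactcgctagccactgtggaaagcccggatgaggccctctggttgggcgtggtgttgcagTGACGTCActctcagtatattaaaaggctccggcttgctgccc
Atf3, chr1:190915538-190915737, minus strand: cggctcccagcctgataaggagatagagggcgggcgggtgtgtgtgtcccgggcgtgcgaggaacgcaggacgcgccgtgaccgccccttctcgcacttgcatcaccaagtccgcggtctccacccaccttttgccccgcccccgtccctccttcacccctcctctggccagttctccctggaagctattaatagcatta

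The unit is the normalized count, the estimated reads of a gene divided by the authors' factors. These cover library size and differences in transcript length between libraries, not the length of the gene itself. Library totals ran from 23704346 to 35094410 normalized counts. The deleted gene was measured first. Ceacam1 had 958, 5027, 1242 and 4596 normalized counts in the wild type libraries 21, 22, 26 and 27 without laser, and 405, 505, 508 and 1171 in the Ceacam1-/- libraries 23, 24, 25 and 28. After laser it ran from 774 to 8367 in wild type (median 996) and from 67.8 to 905 in Ceacam1-/- (median 335). Both pairs of groups overlapped, because libraries 28 and 15, which are labelled Ceacam1-/-, lay above the lowest wild type library of their treatment. These libraries had the highest sums of 4 surface epithelium markers, led by Krt15, with 390464 and 391971 normalized counts. Among the wild type libraries without laser, 22 and 27 had 290384 and 68523, against 25.9 and 25.2 in 21 and 26. The part of this tissue in the Ceacam1 values was not tested. The gene-level values do not separate the deleted part of Ceacam1 from the rest of the transcript. Ceacam1 itself did not pass the test between the genotypes, with a log2 fold change of -1.95 (limma adjusted p = 0.999) without laser and -2.17 (adjusted p = 0.104, and 0.0365 with array weights) with laser, so an uncalled gene in those comparisons is not shown to be alike in the genotypes.

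The libraries also differed in their content of neighbouring tissue. The sum of 5 photoreceptor markers ran from 2015 to 508316 normalized counts and was above 200000 in 5 libraries, the next highest having 133419. These photoreceptor-rich libraries were 21 (wild type) and 23 (Ceacam1-/-) without laser, and 14, 15 and 18 (Ceacam1-/-) after laser. No wild type laser library was among them. The counts of members called after laser are given below with and without them. No marker of the endothelial, myeloid, RPE, photoreceptor, muscle, fibroblast or other lists was at 0 throughout a group.

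Per kilobase of transcript the 10 genes spanned a wide range of levels. Jun had the highest mean over the 24 libraries, with 916 ± 215 normalized counts per kb (SD, n = 24), next to Junb with 915 ± 465.7 and Ier2 with 828.5 ± 328. Egr1 (582 ± 301), Nr4a1 (565 ± 281) and Fos (462 ± 273) formed the middle of the order on the same scale. Atf3 followed with 299 ± 160 and Egr2 with 84.5 ± 60.2. Fosb had 11.7 ± 7.2 and Fosl1 8.48 ± 7.43 normalized counts per kb. Of the 9 pairs of neighbours in this order, the difference within libraries was larger than its SD for Ier2 over Egr1, Atf3 over Egr2 and Egr2 over Fosb. Atf3 was above Egr2 per kb in 24 of 24 libraries and Egr2 above Fosb in 23 of 24. The transcript lengths are those of the annotated canonical transcripts, and that of Egr1 (4496 bases) is the longest of the 10.

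**Figure D1:**
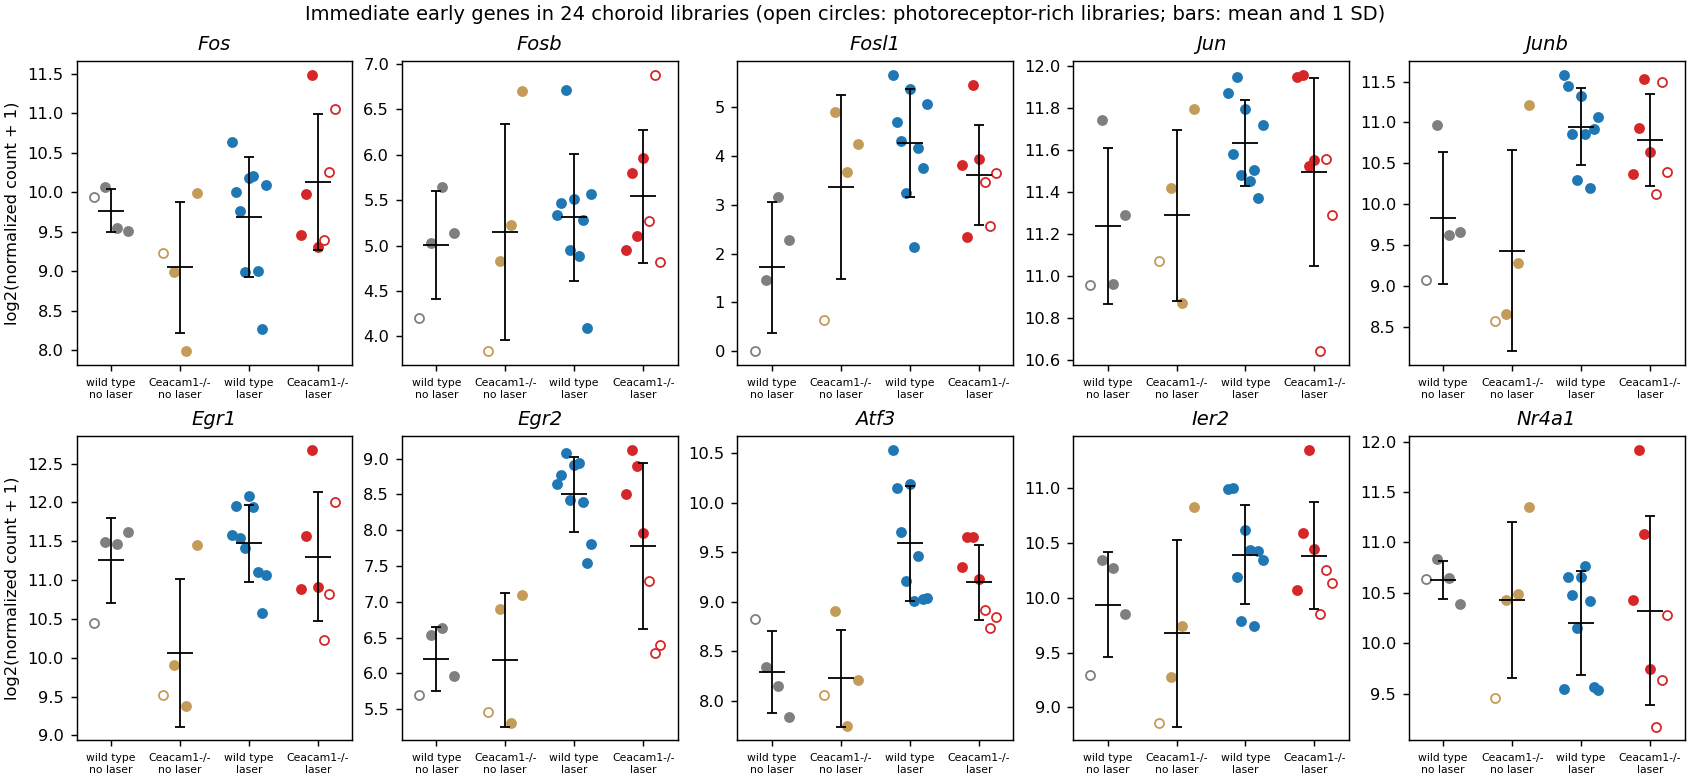
Each panel plots 1 gene, with log2 of the normalized count plus 1 on the vertical axis and the 4 groups on the horizontal axis. Points are libraries, open circles are the 5 photoreceptor-rich libraries and bars are the mean and 1 SD. The 9 wild type laser libraries of Egr2 and Atf3 lay above the 4 wild type libraries without laser, while the groups of Fos and Nr4a1 overlapped.

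Whether laser treatment changed these genes in wild type choroid was asked of 9 libraries against 4. Of the 10 members, 3 were higher after laser, Egr2, Atf3 and Fosl1, and 0 were lower. Fosl1 reached the minimum mean of 10 normalized counts only with the laser libraries, where it was higher. With no filter its adjusted p was 0.0955, so its call depends on that filter. For comparison, 844 of the 19950 genes tested were called higher (4.23%). The other 7 members did not pass the test. Before adjustment 4 of the 10 were under 0.05, against 3993 of all 19950 genes. Every laser library lay above every library without laser for 2 of the 10, Egr2 and Atf3, and for 4.50% of all genes tested. The median log2 fold change of the members was 0.43, and that of all genes tested was -0.10. Without the photoreceptor-rich libraries 2 members, Egr2 and Atf3, were called and the median of the members was 0.27. The genes called in all, higher or lower, then went from 1053 to 1645. All adjusted p-values in this and the following comparisons are from limma on log2 of the value plus 1, adjusted by the Benjamini-Hochberg method over all genes tested.

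Egr2, a zinc finger factor known from myelinating glia and from macrophages, had 51.1, 91.9, 97.9 and 61.2 normalized counts in the wild type libraries 21, 22, 26 and 27 without laser. In the 9 wild type laser libraries it ran from 186 to 540, with a median of 399. The groups did not overlap, and the lowest laser library, 17, was above the highest untreated library, 26. Egr2 was higher after laser by 2.30 on the log2 scale (standard error 0.47, limma adjusted p = 0.00439), which is 4.91-fold. The two-sided exact permutation test gave p = 0.0014, the smallest that 9 libraries against 4 can give.

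Atf3, a leucine zipper factor induced by cellular stress, had 454, 324, 283 and 228 normalized counts in the same 4 wild type libraries without laser. After laser it ran from 515 to 1481 in wild type, with a median of 706. Here too the groups did not overlap, and library 21, which was photoreceptor-rich, was the highest without laser. Atf3 rose by 1.30 on the log2 scale (standard error 0.29, adjusted p = 0.00737), and the exact permutation p was 0.0028. Without the untreated library 27 its adjusted p was 0.0506.

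Fosl1 encodes Fra-1, a Fos family protein known from migrating and invading cells. It was the least abundant member, with 0, 1.75, 7.86 and 3.84 normalized counts in the wild type libraries without laser. After laser the wild type libraries ran from 3.37 to 49.2 with a median of 18.7. The groups overlapped, since laser library 13 was below the untreated libraries 26 and 27. On the log2 scale of the value plus 1 Fosl1 rose by 2.54 (standard error 0.75, adjusted p = 0.0487). Its log2 fold change ran from 1.19 with a pseudocount of 10 to 3.06 with quantile normalization. This call was lost in 5 of 11 alternative settings and in 9 of 13 fits that left out 1 library, with adjusted p-values of 0.0097 to 0.0966 over the settings and 0.0264 to 0.234 over the left-out libraries.

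Fos, the partner of Jun in classical AP-1, was not called in wild type. It had 984, 1074, 751 and 732 normalized counts in the wild type libraries 21, 22, 26 and 27 without laser, and 309 to 1589 (median 1029) in the 9 after laser. The laser libraries extended below and above the untreated ones. Its estimate was -0.09 on the log2 scale with a standard error of 0.43 (adjusted p = 0.925).

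Fosb, a close relative of Fos, had 17.5, 31.7, 49.03 and 34.3 normalized counts without laser and 16.1 to 104 (median 39.3) after laser in wild type. The groups overlapped, and the log2 fold change was 0.31 (standard error 0.48, limma adjusted p = 0.737). Only library 3 stood well above the others after laser.

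Junb and Jun encode the Jun partners of AP-1, Junb having the weaker activity on most targets. Junb had 536, 1997, 790 and 809 normalized counts in the wild type libraries 21, 22, 26 and 27 without laser and 1178 to 3062 (median 1929) after laser. Library 22 lay within the laser range, and the other 3 untreated libraries below it. The log2 fold change of 1.12 (standard error 0.40) had an adjusted p of 0.112. Without library 22 it was 1.50 with an adjusted p of 0.0481, and Junb was also called with array weights (0.0107) and with wild type fitted alone (0.0325). Jun ran from 1991 to 3424 without laser and from 2650 to 3954 after laser, with a log2 fold change of 0.40 (standard error 0.21, adjusted p = 0.289, and 0.0422 with array weights).

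Egr1, the most studied zinc finger factor of this group, had 1390, 2869, 2836 and 3157 normalized counts in the wild type libraries 21, 22, 26 and 27 without laser and 1526 to 4338 (median 2970) after laser. Its fold change of 0.22 on the log2 scale (standard error 0.40, adjusted p = 0.779) compares with 2.30 for Egr2 in the same libraries. Ier2, a small nuclear protein induced by growth factors, ran from 626 to 1295 without and from 856 to 2048 with laser (log2 fold change 0.46, standard error 0.31, adjusted p = 0.425). Nr4a1, the orphan nuclear receptor Nur77, had the lowest fold change of the 10. It ran from 1337 to 1829 without and from 740 to 1746 with laser (log2 fold change -0.43, standard error 0.39, adjusted p = 0.547).

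**Figure D2:**
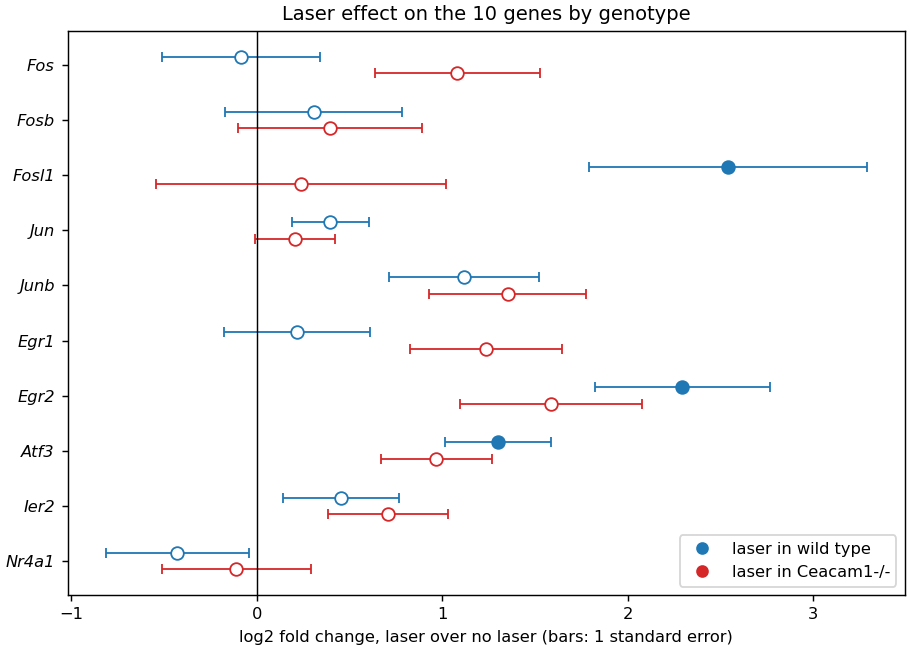
The horizontal axis is the log2 fold change of laser over no laser and the vertical axis lists the 10 genes. Points are limma estimates, bars 1 standard error, and filled points have an adjusted p under 0.05. In wild type the filled points are Fosl1 at 2.54, Egr2 at 2.30 and Atf3 at 1.30, and in Ceacam1-/- no point is filled.

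The same question was asked of 7 Ceacam1-/- laser libraries against 4 without laser. None of the 10 members was called, against 413 genes called higher of 19950 (2.07%), and 6 of the 10 were under 0.05 before adjustment, against 3997 of all 19950 genes. These were Fos, Junb, Egr1, Egr2, Atf3 and Ier2. The groups of every member overlapped, whereas 1.17% of all genes tested had each laser library above each untreated one. The median log2 fold change of the members was 0.84, against 0.02 for all genes tested.

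Atf3 had the lowest p of the members. It had 266, 478, 214 and 296 normalized counts in the Ceacam1-/- libraries 23, 24, 25 and 28 without laser, and 425 to 807 (median 600) in the 7 after laser. Only library 24 lay within the laser range. Atf3 had a log2 fold change of 0.97 with laser (standard error 0.30, limma adjusted p = 0.0689).

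Egr2 had 43.3, 118, 38.7 and 135 normalized counts in the Ceacam1-/- libraries 23, 24, 25 and 28 without laser. After laser the libraries 4, 5, 6 and 7 had 362, 555, 474 and 248, while the photoreceptor-rich libraries 14, 15 and 18 had 155, 76.9 and 83.0. Libraries 4 to 7 and 14 were above all untreated libraries, and libraries 15 and 18 were among them. Egr2 thus had a log2 fold change of 1.59 (standard error 0.49, adjusted p = 0.0700). When the photoreceptor-rich libraries were left out, it was 2.19 (adjusted p = 0.00165), and that of Atf3 was 1.19 (adjusted p = 0.0284), so that 2 of 10 members were then called. The genes called in all went from 742 to 2923 in the same fit.

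Junb had 379, 404, 620 and 2379 normalized counts in the Ceacam1-/- libraries 23, 24, 25 and 28 without laser and 1113 to 2962 (median 1592) after laser. Library 28 lay within the laser range and the other 3 below it. Its log2 value was higher by 1.35 with laser (standard error 0.42, adjusted p = 0.0715). Egr1 had 736, 961, 662 and 2797 normalized counts in the same 4 libraries and 1204 to 6543 (median 1918) after laser, with a log2 fold change of 1.24 (standard error 0.41, adjusted p = 0.0903). Again library 28 alone lay in the laser range.

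Fos had 602, 508, 253 and 1020 normalized counts in the Ceacam1-/- libraries 23, 24, 25 and 28 without laser, and 632 to 2872 (median 1005) with laser. This is a log2 fold change of 1.08 (standard error 0.45, adjusted p = 0.171). Ier2 had 462, 618, 857 and 1812 normalized counts without laser, again with library 28 alone inside the laser range, against 923 to 2602 with laser (log2 fold change 0.71, standard error 0.33, adjusted p = 0.224). Library 28 was the highest Ceacam1-/- library without laser for 8 of the 10 members. It also had 390464 normalized counts of summed surface epithelium markers, against 9876, 331 and 2826 in libraries 23, 24 and 25. The part of this tissue in its values was not tested. When library 28 was left out, 794 genes were called in all, instead of 742. Among them were 4 members, Junb, Egr1, Egr2 and Ier2. Their log2 fold changes were 1.95, 1.70, 1.89 and 1.09, with limma adjusted p-values of 0.00389, 0.0192, 0.0471 and 0.0494.

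The other 4 members had small fold changes in Ceacam1-/-. Fosb had a log2 fold change of 0.39 (adjusted p = 0.689), Fosl1 of 0.24 (0.889), Jun of 0.21 (0.626) and Nr4a1 of -0.11 (0.902). Fosl1 had 0.569, 28.6, 11.7 and 17.8 normalized counts in the untreated Ceacam1-/- libraries 23, 24, 25 and 28, higher in 3 of them than in any untreated wild type library. After laser it ran from 4.05 to 42.7 in Ceacam1-/-.

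Whether the laser effect differed between genotypes was tested as the interaction in the same model of 24 libraries. No gene of 19950 was called, while 1241 were under 0.05 before adjustment, and none of the members was called. Before adjustment only Fosl1 was under 0.05, with a laser effect lower in Ceacam1-/- by 2.30 on the log2 scale (standard error 1.08, limma adjusted p = 0.640). The laser effects of Fos and Egr1 were higher in Ceacam1-/- by 1.17 (standard error 0.62) and 1.02 (standard error 0.57), both with an adjusted p of 0.640. Egr2, called in wild type and not in Ceacam1-/-, had an interaction of -0.71 (standard error 0.68, adjusted p = 0.708), and Atf3 of -0.33 (standard error 0.41, adjusted p = 0.764). The direction for Egr2 turned without the photoreceptor-rich libraries, to 0.060. The difference in laser effect between the genotypes did not pass the test for any member.

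Genotype was compared without laser in 4 libraries against 4, the comparison of healthy choroid. Fosl1 was below the minimum mean of 10 normalized counts. Of the 9 members tested 0 were called, as were 0 of 20057 genes (0%), of which 307 were under 0.05 before adjustment. The paper, with DESeq2 and sex as a covariate, did report differentially expressed genes in this comparison. Egr1 came first among the members, with 1390 to 3157 normalized counts in wild type and 662 to 2797 in Ceacam1-/-. Its log2 fold change of Ceacam1-/- over wild type was -1.19 (standard error 0.47, limma adjusted p = 0.999). The exact permutation test gave p = 0.0571, with 0.0286 the smallest that 4 libraries against 4 can reach. For Fos it was -0.72 (standard error 0.39, adjusted p = 0.999). After laser, in 7 libraries against 9, none of the members was called, against 4 of 19757 genes (0.0202%), and none was under 0.05 before adjustment, against 4479 genes. The 2 lowest p-values were those of Egr2, with a log2 fold change of -0.73 (standard error 0.40, adjusted p = 0.274), and Atf3, with -0.39 (standard error 0.24, adjusted p = 0.318). Without the photoreceptor-rich libraries the value of Egr2 was 0.12 (adjusted p = 0.962).

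Markers of other cells differed with laser beside these genes. The sum of 6 myeloid markers, with Csf1r the most abundant, was 3810 ± 1273 normalized counts (SD, n = 4) in wild type without laser and 12314 ± 2157 (n = 9) after laser, and 5 of 6 markers were called higher. In Ceacam1-/- the sums were 4150 ± 337 (n = 4) and 8715 ± 4136 (n = 7), with 4 of 6 markers called. Without the photoreceptor-rich libraries the Ceacam1-/- sums were 4294 ± 217 (n = 3) and 11886 ± 1409 (n = 4), with 5 of 6 called. The sum of 5 fibroblast markers, led by Col1a1, was 125111 ± 41035 normalized counts (n = 4) without and 270083 ± 68737 (n = 9) with laser in wild type, and 108285 ± 77235 (n = 4) and 310319 ± 238055 (n = 7) in Ceacam1-/-, and 1 of the 5 was called in each genotype. When the photoreceptor-rich libraries were left out, the Ceacam1-/- fibroblast sums were 133319 ± 72026 (n = 3) and 490658 ± 107492 (n = 4), and 5 of 5 markers were called, against 3 of 5 in wild type. The skeletal muscle sum, led by Acta1, was 317136 ± 98284 without and 192860 ± 70661 with laser in wild type, and 384692 ± 299160 and 84664 ± 54134 in Ceacam1-/-, with none of the 5 markers called. In the 19 libraries not rich in photoreceptor markers all 5 muscle markers were called lower in Ceacam1-/- and none in wild type. The sum of 5 RPE markers, led by Ttr, was 291158 ± 220553 (n = 4) without and 99740 ± 64321 (n = 7) with laser in Ceacam1-/-, where 4 of 5 were under 0.05 before adjustment and none was called. In wild type it was 208142 ± 102526 (n = 4) and 216839 ± 68317 (n = 9). Without the photoreceptor-rich libraries the Ceacam1-/- RPE sums were 340590 ± 241463 (n = 3) and 146758 ± 36573 (n = 4), with none called. Neutrophil markers rose for 2 of the 3 tested in wild type and 1 of 3 in Ceacam1-/-, and for 2 of 3 in both without the photoreceptor-rich libraries. Surface epithelium sums were 89739 ± 137605 without and 12754 ± 33531 with laser in wild type, and 100874 ± 193102 and 57120 ± 147679 in Ceacam1-/-. Their median log2 fold changes were -1.01 and -3.10, with none called. Nerve markers had medians of -0.41 and -2.26, and in Ceacam1-/- 2 of 3 were under 0.05 before adjustment and none was called. Without the photoreceptor-rich libraries, among them 23 with a nerve sum of 544614, the Ceacam1-/- median was 0.31. In bulk tissue, more cells of a type and more RNA per cell cannot be told apart.

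Over all libraries Egr2 was the only member whose relation to the myeloid markers passed the test. Over the deviations of 24 libraries from their group means, Pearson's r between Egr2 and the myeloid sum was 0.74 and Spearman's rho 0.70 (permutation test within groups, adjusted p = 0.0195 and 0.024 over 30 relations of 10 members with 3 marker sums). Without the 2 libraries farthest from the median of the marker sum r was 0.64. Within the 9 wild type laser libraries r was 0.58. The 7 Ceacam1-/- laser libraries fell into separate clusters, with 11020 to 13990 normalized counts of myeloid markers in libraries 4 to 7 and 3219 to 5589 in the photoreceptor-rich libraries 14, 15 and 18. Without the 5 photoreceptor-rich libraries r was 0.36 (permutation test, adjusted p = 0.658, n = 19), so it did not pass without those libraries. In these 19 libraries r was higher for Fos (0.47), Egr1 (0.43) and Fosl1 (0.39), none of which passed. Within the 9 wild type laser libraries r was 0.70 for Fos, above that of Egr2. None of the other 29 relations passed by both measures, and the sums of photoreceptor and skeletal muscle markers gave no call. The part of infiltrating or retinal cells in the changes of Egr2 and Atf3 was not tested.

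**Figure D3:**
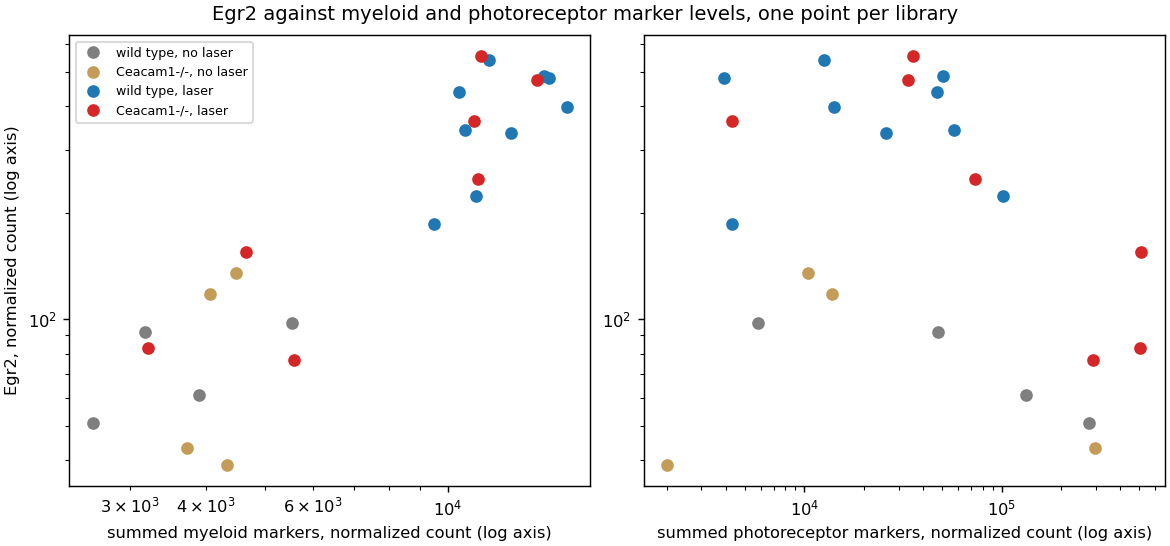
Each point is 1 library, with the normalized count of Egr2 on the vertical axis and the summed normalized counts of 6 myeloid (left) or 5 photoreceptor markers (right) on the horizontal axis, all on log scales. The 9 wild type laser libraries had at least 186 normalized counts of Egr2, and the 3 photoreceptor-rich Ceacam1-/- laser libraries had 76.9 to 155.

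How far the genes moved together from library to library was examined within the groups. The SD of the log2 values within groups was smallest for Jun (0.35, larger than in 22.4% of the genes tested) and largest for Fosl1 (1.27, larger than in 86.0%), and the median gene had 0.59. Of the 45 pairs of members all had a positive Pearson's r between their deviations from the group means, with a median of 0.40. When the photoreceptor-rich libraries were left out, 44 of 45 were positive, with a median of 0.38, and the lowest was -0.33 for Fosl1 and Nr4a1. As a description of the background, the mean r to the 10 members was above 0 for 52.4% of 15545 genes. These genes had a mean of at least 50 normalized counts, and the median of the mean r was 0.03. It is a mean over the members for each gene, so it is not the rate for single pairs. With an adjusted p under 0.05 by both Pearson's r and Spearman's rho there were 6 pairs, by permutation of the libraries within groups. When the 9 wild type laser libraries were taken alone, 40 of the 45 pairs were positive, and 36 were in the 7 Ceacam1-/- laser libraries.

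The closest pair was Junb and Ier2, with r = 0.88 and rho = 0.85 (permutation test, adjusted p = 0.00045 for both, from an unadjusted 1e-05, the smallest that the permutations can give). Without the 2 farthest libraries r was 0.86, and it was 0.97 within wild type laser and 0.75 within Ceacam1-/- laser libraries. Both genes lie on chromosome 8, in the same orientation and 316 kb apart. Fos and Egr1 followed with r = 0.74 and rho = 0.66 (adjusted p = 0.00495 and 0.0163). Without the 2 farthest libraries their r was 0.64, and it was 0.73 and 0.89 within the laser groups.

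Egr1 was also paired with Ier2 (r = 0.71, rho = 0.61, adjusted p = 0.0153 and 0.0292, r = 0.51 without the 2 farthest libraries) and with Nr4a1 (r = 0.67, rho = 0.67, adjusted p = 0.0234 and 0.0204, r = 0.59). Egr2 was paired with Nr4a1 (r = 0.71, rho = 0.74, adjusted p = 0.0181 and 0.00832, r = 0.76) and Atf3 (r = 0.58, rho = 0.56, adjusted p = 0.0181 and 0.0292, r = 0.54). Egr2 and Atf3 reached r = 0.97 in the 7 Ceacam1-/- laser libraries, which held the clusters described above, and 0.54 in the 9 of wild type. The weakest pair was Fosb and Atf3, with r = 0.03. In the 19 libraries that were not photoreceptor-rich 3 of these 6 pairs passed (permutation test on Pearson's r), Junb and Ier2 (r = 0.90), Fos and Egr1 (0.85) and Egr2 and Nr4a1 (0.71). The other 3 had r = 0.70 for Egr1 and Ier2, 0.64 for Egr1 and Nr4a1 and 0.61 for Egr2 and Atf3, with adjusted p-values of 0.0747, 0.0747 and 0.0791. The number of pairs passing stayed at 6, with Egr1 and Egr2 (0.73), Fos and Ier2 (0.71) and Fos and Junb (0.69) now among them.

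Some libraries stood at the end of their group for several members. Library 28 was the highest of the untreated Ceacam1-/- libraries for 8 members, as given above. Library 6 was the highest of the 7 Ceacam1-/- laser libraries for 6 members, with 2872 normalized counts of Fos and 6543 of Egr1. Library 22 was the highest untreated wild type library for 5 members, and library 21 the lowest for 7. The surface epithelium markers of library 22 summed to 290384 normalized counts, against 25.9, 25.2 and 68523 in libraries 21, 26 and 27. Library 17 was the lowest wild type laser library for 5 members, among them Fos with 309 and Egr1 with 1526 normalized counts.

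**Figure D4:**
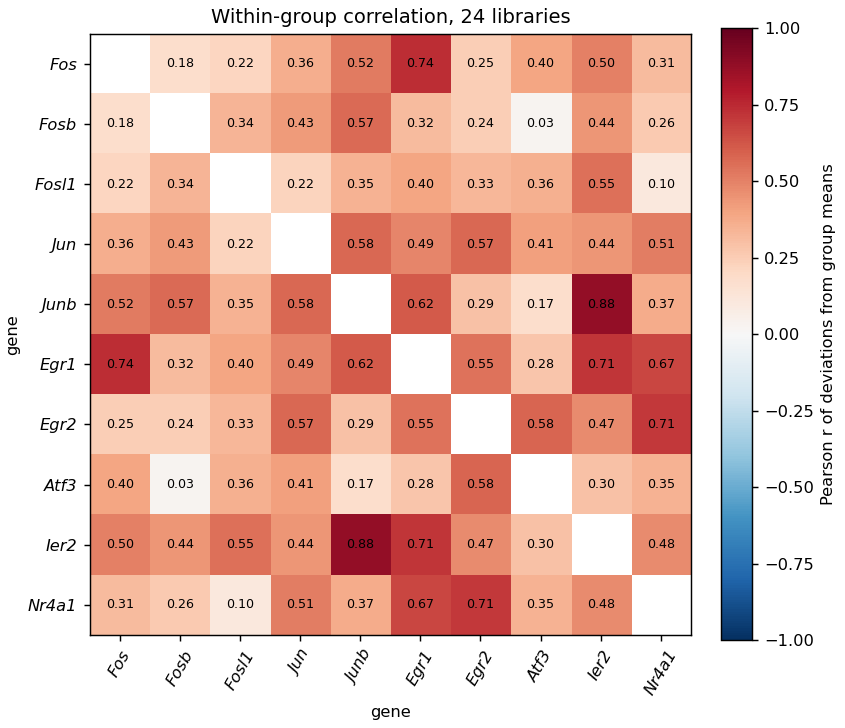
The 10 genes are on both axes, and each cell gives Pearson's r between the deviations of their log2 values from the group means over 24 libraries, from blue (-1) to red (1). All 45 pairs are above 0, and the darkest is Junb with Ier2 at 0.88.

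Outside the listed genes, those most like the 10 members were ranked by mean r over the same deviations, as a description. All libraries were used, and the ranking was not repeated without the photoreceptor-rich ones. Leaving the listed genes aside, the first 10 were Ckap4, Chaf1b, Cks1b, Neil3, AI506816, Tcf19, Cenpa, Trp53, Cdk1 and Eif4e2, with a mean r of 0.55 to 0.59. Cks1b and Cdk1 act in cell division, Cenpa marks the centromere, Chaf1b assembles chromatin behind the replication fork and Trp53 encodes p53. In the order of all 15545 genes, which includes listed ones, Zfp36, which encodes an RNA-decay factor, ranked 9 and Myc 18.

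Other genes of the pathway were read from lists. For comparison, laser gave calls for 5.28% of all genes tested in wild type and 3.72% in Ceacam1-/-. Of 18 other AP-1 and ATF subunits, 1 was called after laser in wild type and 0 in Ceacam1-/-, which is near those shares. In wild type it was Batf3, a subunit known from dendritic cells, with a log2 fold change of 1.42 (standard error 0.42, adjusted p = 0.0489). The call was lost in 3 of 11 alternative settings and in 10 of 13 fits without 1 library (adjusted p up to 0.216). Its relative Batf had 1.40 (adjusted p = 0.0817) and was called with array weights (0.000121), with wild type fitted alone (0.0231) and without library 26 (0.0481). In Ceacam1-/- the lowest p-values were those of Ddit3 (log2 fold change -0.58, adjusted p = 0.0770) and Atf5 (-1.23, 0.0902). Both were called lower with array weights (0.0105 and 0.0354), without the untreated library 23 (0.0236 and 0.00891) and without the photoreceptor-rich libraries (0.0384 and 0.0276). The median of the list was -0.04 in wild type and 0.01 in Ceacam1-/-. In the 19 libraries not rich in photoreceptor markers 0 were called in wild type and 2, both lower, in Ceacam1-/-. In those fits 1645 genes instead of 1053 and 2923 instead of 742 were called in all.

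Of 23 listed upstream regulators, mostly kinases, serum response factor with its partners and CREB with its coactivators, 0 were called in either genotype. Without the photoreceptor-rich libraries 1 was called higher in wild type, and 1 higher and 2 lower in Ceacam1-/-. The genes called in all then went from 1053 to 1645 and from 742 to 2923. The lowest p-values in wild type were those of Elk3 (log2 fold change 0.83, adjusted p = 0.140) and Tcf3 (0.49, 0.144), a helix-loop-helix factor that is not one of the ternary complex factors. Elk3 was called with array weights (adjusted p = 0.000994), with wild type fitted alone (0.00812) and without the photoreceptor-rich libraries (0.0154), and Tcf3 with array weights (0.00314). In Ceacam1-/- they were those of Map2k2 (-0.44, 0.107) and Crebbp (-0.62, 0.243). Both were called without the untreated library 23 (0.0148 and 0.0450), and Map2k2 also with array weights (0.0344) and without the photoreceptor-rich libraries (0.0228).

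Of 54 other immediate early and feedback genes 53 were tested. In wild type 7 were called higher and 0 lower, against 4.23% and 1.05% of all genes tested. Ptgs2, the inducible cyclooxygenase, had 36.3 to 143 normalized counts without laser and 333 to 630 after laser, with a log2 fold change of 2.47 (standard error 0.37, adjusted p = 0.000218). The groups did not overlap. Socs3, a feedback inhibitor of cytokine signalling, rose by 1.19 (adjusted p = 0.00459) and Gadd45b, a stress sensor, by 1.28 (adjusted p = 0.00642) on the log2 scale. Without library 21 the adjusted p of Gadd45b was 0.0623. The lowest p-values among genes with negative fold changes were those of Homer1 (-0.81, 0.151), Dusp1 (-0.44, 0.472) and Gadd45g (-0.40, 0.513), none of them called. With array weights Homer1 (0.0181) and Dusp1 (0.0469) were.

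In Ceacam1-/- 4 genes of that list were called higher and 1 lower, against 2.07% and 1.65% of all genes tested. When the photoreceptor-rich libraries were left out, 10 were higher and 1 lower of 52, and 10 and 0 in wild type, while the genes called in all went from 742 to 2923 and from 1053 to 1645. Btg1, an antiproliferative gene, rose by 1.26 on the log2 scale (adjusted p = 0.000352), Ptgs2 by 1.87 (0.0097) and Socs3 by 0.99 (0.0327). The call of Socs3 was lost in 4 of 12 settings and in 6 of 11 fits without 1 library (adjusted p up to 0.218), and that of Ptgs2 (adjusted p = 0.152) when each genotype was fitted alone and, at 0.0509, without library 25. Arc, a neuronal activity gene, was lower. It had 127 to 177 normalized counts without and 21.9 to 75.6 with laser in Ceacam1-/-, and these groups did not overlap (log2 fold change -1.57, adjusted p = 0.00327, and 0.140 when each genotype was fitted alone). Gadd45g (-0.77, adjusted p = 0.212) and Dusp4 (-0.94, adjusted p = 0.275) did not pass, although Gadd45g did with array weights (0.0250) and without library 23 (0.0282). Between the genotypes none of the list was called. The lowest p-values without laser were those of Per1 (0.88), Nfkbia (0.68) and Btg1 (-0.73), all with an adjusted p of 0.999, and after laser those of Arc (-0.93, adjusted p = 0.112, and 0.0394 with array weights), Per1 (0.93, 0.119) and Dusp4 (-1.26, 0.127).

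Effector genes linked to AP-1 in other tissues include proteases, their inhibitors and cytokines. The list was chosen with results of these data known, so its count is no independent evidence. Of 20 such genes 15 were called higher and 1 lower in wild type, and 14 and 1 in Ceacam1-/-. In the 19 libraries not rich in photoreceptor markers these counts were 15 and 1, and 17 and 2, with 1645 and 2923 genes called in all. With all libraries the lower gene in both genotypes was Vegfa, the vascular growth factor, with log2 fold changes of -0.88 (adjusted p = 0.0296) and -1.06 (adjusted p = 0.0181). Timp1, an inhibitor of matrix metalloproteinases, had 97.1 to 279 normalized counts without and 1655 to 8177 with laser in wild type (log2 fold change 4.69, adjusted p = 4.59e-07). In Ceacam1-/- its log2 fold change was 4.23 (adjusted p = 7.71e-06). Spp1, which encodes the matrix protein osteopontin, had log2 fold changes of 4.92 (adjusted p = 9e-07) and 4.22 (adjusted p = 3.49e-05). That these genes were called while Fos and Jun were not is a statement on the same libraries, and a dependence on the factors was not tested.

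Heat shock genes, which respond to the warming and handling of tissue, were read as a companion list. None of the 9 (Hspa1a, Hspa1b, Hsph1, Hspa8, Hspe1, Dnajb1, Hsp90aa1, Hspd1 and Hspb1) was called after laser in either genotype. Of all genes tested 5.28% were called in wild type and 3.72% in Ceacam1-/-, so this count is near those shares. The absence of calls depended on the setting in wild type, where Hsph1 was called lower with array weights (adjusted p = 0.00701), quantile normalization (0.0495), a minimum mean of 50 (just under 0.05), each genotype fitted alone (0.0406) or untreated library 26 left out (0.0175), and Hspa1a (0.0272) and Hspa1b (0.00869) with array weights. The sum of the 9 was 87996 ± 18856 normalized counts (SD, n = 4) in wild type without laser and 74858 ± 9571 (n = 9) after laser, with Hspa8 the most abundant. In wild type 3 of them were under 0.05 before adjustment, all with lower values after laser, against 3993 of all 19950 genes tested. Hsph1 had a log2 fold change of -0.66 (adjusted p = 0.056), Hspa1a of -1.03 (0.161) and Hspa1b of -1.59 (0.215). In Ceacam1-/- none was under 0.05 before adjustment, and the sums were 82995 ± 14135 (n = 4) without and 71896 ± 8522 (n = 7) with laser.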

How the data were processed

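Choroidal RNA was sequenced from SMART-Seq libraries. The authors checked reads with FastQC 0.11.5, pseudo-aligned them with salmon 1.10.3 to GRCm39, imported them with tximport and deposited normalized counts from DESeq2 1.44.0, after removing an outlier library. These deposited signal values are estimated reads divided by factors for library size and for differences in transcript length between libraries. They are not whole reads, so no count model was used. The precision of low genes such as Fosl1 is limited by depth, and no counting interval can be given.

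Groups were taken from the sample labels. Of the gene identifiers 99.1% matched the GENCODE annotation. Values were turned to log2 after adding 1, and genes whose mean in the fitted libraries reached 10 were compared with limma 3.58.1 (R 4.3.3) with a variance trend. Laser effects and their interaction with genotype came from 24 libraries, and genotype effects from the 8 without or the 16 with laser. The Benjamini-Hochberg threshold was 0.05. The study's sex covariate was not available for the libraries. For single members two-sided exact permutation tests were added, and correlations by 100000 permutations within groups (20000 for the marker sums). Tables, permutations and plots were made in Python 3.11.15 (numpy 2.4.6, scipy 1.17.1, pandas 2.3.3, matplotlib 3.10.9). Methods were tested on simulated data.

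The members, gene lists and tests were chosen with earlier results of these data known. Named genes were the members, Ceacam1, all heat shock genes, the 2 or 3 genes of lowest p in each other list and comparison, the 10 genes most like the members, and the most abundant marker of a list. Zfp36 and Myc were named after their ranks were seen. The settings varied were the pseudocount (0.5 or 10), the filter (none, or a mean of 50), the scaling (quantile or upper quartile) and the model (no trend, robust variances, array weights, a covariate of summed Y-linked genes, or other libraries in the fit), and each library was left out in turn. Leaving out the 5 photoreceptor-rich libraries together (summed markers above 200000, with 1 marker of the list not reported here) and the correlations with marker sums were chosen after seeing the data. Motifs were read from the GRCm39 genome.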

Additional observations from a re-analysis of the deposited data

Results flagged for a closer look

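Of the 40 sets of values of 1 member in 1 group that hold 4 to 10 libraries, 1 had a library set apart from the others by Dixon's criterion, and chance flags about 1 set in 20. Egr1 had 1390 normalized counts in library 21 of the untreated wild type group, while the other 3 libraries ran from 2836 to 3157. Library 21 was photoreceptor-rich, with 276713 normalized counts of summed photoreceptor markers, and was the lowest of its group for 7 of the 10 members. Without it the log2 fold change of Egr1 with laser in wild type was -0.05 instead of 0.22, and neither passed the test. The part of retinal tissue in this value was not tested.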

How the results depend on the processing

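Egr2 kept its call after laser in wild type in 12 of 12 alternative settings and 13 of 13 fits without 1 library (log2 fold change 2.13 to 2.54), and Atf3 in 12 of 12 and 12 of 13. Without the untreated library 27 the adjusted p of Atf3 was 0.0506 and 1 member was called. No paired analysis was possible because the groups share no replicate numbers.

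With array weights 5 members were called in wild type and 4 in Ceacam1-/-, with 6505 and 3551 genes in all, and the fold changes of Fos in wild type (0.0022), Fosl1 (-0.57) and Nr4a1 (0.14) in Ceacam1-/- changed sign. With laser contrasts fitted in each genotype alone, 2274 and 38 genes were called, and genotype with laser gave 9 genes from all libraries. With no filter 437 genes were called in Ceacam1-/-. Without the photoreceptor-rich libraries 1645 and 2923 genes and, in Ceacam1-/-, 2 members were called. The fold changes of Fosb (-0.13), Fosl1 (-0.38) and Nr4a1 (0.037) in Ceacam1-/-, of Egr1 in wild type (-0.054) and of Egr2 between genotypes after laser (0.12) and in the interaction (0.060) then changed sign. A pseudocount of 10 gave -0.0050 for Fosl1 in Ceacam1-/-. Genotype without laser gave 1 gene without the variance trend and 1 with array weights. Genotype with laser gave 2 genes at a mean of at least 50, 297 with array weights and 2 without the photoreceptor-rich libraries. With group means kept, 25 pairs of members were correlated instead of 6. The cause of these changes was not tested.

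With 1 library left out, the genes called ran from 479 to 1162 (members 1 to 3) for laser in wild type and from 148 to 2488 (members 0 to 4) in Ceacam1-/-, from 0 to 1 for genotype without laser and from 4 to 61 with laser. Without library 15 or 18, 1 member, Egr2, was called in Ceacam1-/-, and without library 28, 4 were. The fold changes ran from -0.21 to 0.090 for Fos and from -0.054 to 0.34 for Egr1 in wild type, and from -0.044 to 0.91 for Fosb, from -0.66 to 0.75 for Fosl1 and from -0.43 to 0.20 for Nr4a1 in Ceacam1-/-. Across all alternatives 2 of 10 members changed sign for laser in wild type, 3 in Ceacam1-/-, 6 for the interaction, 6 of 9 for genotype without laser and 8 of 10 with laser. No member was called for the interaction or for genotype in any alternative.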
